A study of Homo sapiens with 12 samples.

Results

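The genes described here are 10 members of the NLR family of the human genome: NLRP2, NLRP4, NLRP5, NLRP7, NLRP9, NLRP11 and NLRP13, whose known expression is largely reproductive, and NLRP1, NLRP3 and NLRX1, which act in innate immunity. They were taken from a fixed list of symbols and read out of the 58735 genes counted in each of 12 RNA sequencing libraries. The list was selected on the knockout against wild-type values of these same libraries, so the changes of its members are given as a description, with no test.

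The libraries came from HAP1, a human cell line with a near-haploid genome that originated in a chronic myelogenous leukemia, and no library was from treated cells. There were 4 groups of 3 libraries. Wild-type HAP1 and HAP1 with SETDB1 knocked out were each prepared with a kit that discards the strand of the RNA (non-directional), and each also with a kit that keeps it (directional). SETDB1 encodes a methyltransferase that places trimethyl marks on histone H3 lysine 9, and the comparison addressed which genes and LINE-1 (L1) elements change when it is missing. How the knockout was made, and whether it is 1 clone, are not given in the sources used here. The titles call the libraries biological replicates but name no separate cultures, so SDs, standard errors and p-values measure the spread between these libraries only.

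NLRP proteins share an ATP-binding NACHT domain and a run of leucine-rich repeats, and most begin with a pyrin domain that recruits partner proteins. NLRP1 and NLRP3 are sensors that assemble inflammasomes, platforms that activate the protease CASP1 and release of inflammatory cytokines, whereas NLRX1 sits in mitochondria and is known as a brake on antiviral signalling. The chromosome 19 genes are best known from oocytes and early embryos: NLRP5 is a core part of the subcortical maternal complex, and inherited loss of NLRP7 in the mother is a known cause of recurrent molar pregnancy.

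Of the 10 genes, 7 lie on the long arm of chromosome 19 (GENCODE release 29, GRCh38). NLRP7 (ENSG00000167634) occupies 54923509 to 54966312 on the minus strand and NLRP2 (ENSG00000022556) occupies 54953130 to 55001142 on the plus strand. Their spans therefore overlap, but they share no exon base. NLRP9 (55708432 to 55738402, minus), NLRP11 (55785397 to 55836800, minus), NLRP4 (55836578 to 55881854, plus), NLRP13 (55891699 to 55932336, minus) and NLRP5 (55999726 to 56061813, plus) follow in a separate cluster. NLRP1 lies on chromosome 17 (5499427 to 5619424, minus), NLRP3 on chromosome 1 (247416156 to 247449108, plus) and NLRX1 on chromosome 11 (119166568 to 119184016, plus).

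The start regions of NLRP2 and NLRP7 are shown because these are the genes whose counts differed most, and that of NLRP4 because it belongs to the cluster whose counts stayed at or near 0. Each window runs from 250 bases before to 50 bases after a start given by RefSeq on GRCh38.p14, is written 5′ to 3′ on the strand of its gene, and has every CG in capitals. RefSeq windows matched 8 of the 10 genes, with 2 for NLRP2 and 2 for NLRP11.
NLRP2 upstream start, chr19:54965034-54965333, plus strand: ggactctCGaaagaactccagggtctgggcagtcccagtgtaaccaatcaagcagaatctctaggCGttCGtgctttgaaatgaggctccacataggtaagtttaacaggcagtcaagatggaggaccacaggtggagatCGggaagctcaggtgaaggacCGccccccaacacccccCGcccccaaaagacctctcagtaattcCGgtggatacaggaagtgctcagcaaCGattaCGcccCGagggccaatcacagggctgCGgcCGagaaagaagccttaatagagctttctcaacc
NLRP2 downstream start, chr19:54966124-54966423, plus strand: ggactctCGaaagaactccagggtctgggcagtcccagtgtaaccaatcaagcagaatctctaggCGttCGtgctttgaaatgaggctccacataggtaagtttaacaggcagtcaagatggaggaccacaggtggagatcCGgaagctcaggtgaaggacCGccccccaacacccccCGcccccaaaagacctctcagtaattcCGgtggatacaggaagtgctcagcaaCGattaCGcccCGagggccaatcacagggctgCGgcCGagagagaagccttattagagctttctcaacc
NLRP7 start, chr19:54947481-54947780, minus strand: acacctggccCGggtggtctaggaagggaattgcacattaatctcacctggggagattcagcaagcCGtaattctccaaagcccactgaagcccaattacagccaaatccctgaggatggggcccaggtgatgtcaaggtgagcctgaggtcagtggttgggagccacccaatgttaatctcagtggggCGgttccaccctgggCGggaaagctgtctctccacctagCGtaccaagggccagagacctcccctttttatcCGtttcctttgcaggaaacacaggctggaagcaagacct
NLRP4 start, chr19:55836290-55836589, plus strand: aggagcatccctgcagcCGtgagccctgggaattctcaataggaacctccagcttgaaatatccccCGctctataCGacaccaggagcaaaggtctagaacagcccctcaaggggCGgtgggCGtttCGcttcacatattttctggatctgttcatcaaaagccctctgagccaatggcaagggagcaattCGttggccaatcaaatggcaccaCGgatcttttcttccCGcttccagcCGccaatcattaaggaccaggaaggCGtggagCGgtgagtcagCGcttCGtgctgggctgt

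The NLRP2 windows are near copies of each other. They lie 1090 bases apart and are the same at 297 of 300 positions (99%). The differences are G142C, A273G and A284T, with the base of the upstream window first and positions counted from 1 at the 5′ end of the window. Each holds 12 CG dinucleotides, against a median of 14 over all 35116 RefSeq windows of this length, and 46.9% of all windows hold fewer. The NLRP7 window holds 6 and the NLRP4 window 14. The letters CCAAT, searched on both strands, occur 2 times in each NLRP2 window, 2 times in the NLRP7 window and 3 times in the NLRP4 window, and at least once in 34.6% of all windows. The letters GGGCGG occur 2 times in each NLRP2 window, 2 times in that of NLRP7 and 1 time in that of NLRP4, and at least once in 45.0% of all windows. A match is a description of the sequence only.

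The annotation also places starts of NLRP7 beside those of NLRP2. Of the 9 NLRP7 transcripts in GENCODE, 4 start inside the downstream NLRP2 window on the opposite strand, 62 to 131 bases from the NLRP2 start, 3 start inside the NLRP7 window printed above, and 2 start in neither. Of the 19 NLRP2 transcripts, 4 start in its upstream and 5 in its downstream window. Gene counts do not show where along a gene its reads lie, so which start was used cannot be read from them. The NLRP4 window and one NLRP11 window on the opposite strand share 64 bases.

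Libraries of the non-directional kit held 8921959 to 10199215 gene counts, with 80.3% to 80.4% of listed reads in genes. Directional libraries held 532021 to 676691 gene counts, only 5.23% to 5.30% of their listed reads. Levels are given as CPM, counts per 1000000 gene counts of the library, and the lowest level that the depth can show was taken as 3 counts, which is 0.294 to 0.336 CPM in the non-directional and 4.43 to 5.64 CPM in the directional libraries. SETDB1 fell from 59.97 ± 4.37 to 11.5 ± 0.637 CPM (SD, n = 3 each) in the non-directional libraries, a log2 fold change of -2.39 (standard error 0.079, edgeR adjusted p = 7.0e-43). In the directional tables it had a log2 fold change of -0.71 (standard error 0.41, edgeR adjusted p = 0.256), which did not pass. Counts of the 3 non-directional knockout libraries differed by no more than sampling noise (chi-square per degree of freedom 0.956 to 0.991), while wild-type replicate 2 stood apart from the other wild-type libraries (1.82 and 2.00, against 1.03 between the others). These knockout libraries were counted as 3 samples because the titles number them so. Whether they come from separate cultures is not given, and repeats of 1 culture cannot be told apart from closely matched samples here.

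NLRP2 and NLRP7 went from near silence to clear expression in the knockout, NLRP1 was slightly higher, NLRX1 was at a similar level in both genotypes, and the other 6 genes had at most 4 counts in any library. NLRP2, in background a cytoplasmic member of the family that modulates NF-kB signalling and is needed in the oocyte, had 20, 24 and 15 counts in the wild-type non-directional libraries and 3724, 3639 and 3767 in the knockout libraries. These are 1.96, 2.69 and 1.60 CPM against 381, 371 and 371 CPM. Every knockout library was above every wild-type library by a wide margin, and the knockout libraries differed little among themselves. The means were 2.08 ± 0.557 and 374 ± 5.78 CPM (SD, n = 3 each). The fitted log2 fold change was 7.48 (standard error 0.074), or 179-fold, which was rank 11 of 13778 genes. In bulk samples a change in the number of cells that express a gene and a change in the RNA per cell cannot be told apart, and this holds for each of the 10 genes.

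NLRP7, the closest relative of NLRP2 and its neighbour, had 5, 2 and 9 counts in the wild-type libraries, against 209, 222 and 232 counts with SETDB1 knocked out. The corresponding levels were 0.490, 0.224 and 0.958 CPM and 21.4, 22.6 and 22.8 CPM. The wild-type libraries spread around the lowest level the depth can show, and all knockout libraries were far above it. The means were 0.557 ± 0.371 and 22.3 ± 0.790 CPM (SD, n = 3 each). The fitted log2 fold change was 5.27 (standard error 0.20), or 38.7-fold, at rank 49 of 13778. Without wild-type replicate 3, which had the most counts of the wild-type libraries, it was 5.87, or 58.5-fold. The gene entered the fit only through its knockout libraries.

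NLRP1, a sensor of pathogen proteases in epithelia and other tissues, had 37, 45 and 37 counts in the wild-type libraries against 60, 61 and 59 in those of the knockout, or 3.63, 5.04 and 3.94 CPM against 6.14, 6.22 and 5.81 CPM. The groups did not overlap, although wild-type replicate 2 was nearer to the knockout libraries than the others were. The means were 4.20 ± 0.744 and 6.06 ± 0.220 CPM (SD, n = 3 each). The fitted log2 fold change was 0.53 (standard error 0.17), or 1.44-fold. Its call was lost with the Wald test of DESeq2 (log2 fold change 0.52) and without wild-type replicate 1 (0.42). Since the list was chosen on this contrast, nothing is read from the call or its loss.

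NLRX1 had 193, 241 and 184 counts in the wild-type libraries against 202, 190 and 196 in those of the knockout. At 18.9, 27.0 and 19.6 CPM against 20.7, 19.4 and 19.3 CPM the groups overlapped, with wild-type replicate 2 alone above the rest. The means were 21.8 ± 4.49 and 19.8 ± 0.769 CPM (SD, n = 3 each), with a log2 fold change of -0.14 (standard error 0.093). Without wild-type replicate 2 it was 0.034, and without wild-type replicate 1 it was -0.24 and passed the threshold. As for NLRP1, nothing is read from that call, because this contrast chose the list.

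**Figure D1:**
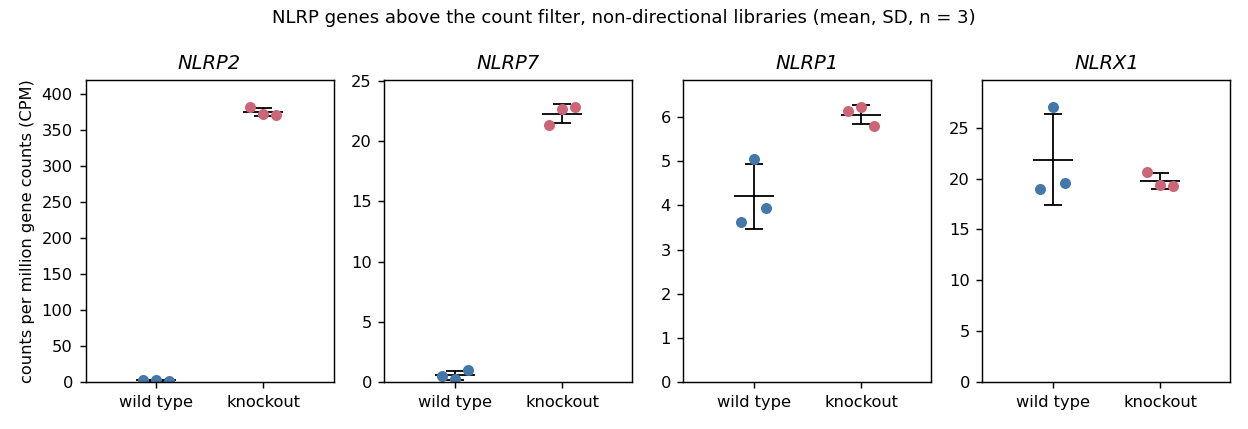
Level in counts per 1000000 gene counts (CPM) of NLRP2, NLRP7, NLRP1 and NLRX1 in the non-directional libraries, with 1 point a library, a bar at the mean and whiskers of 1 SD (n = 3), and a separate linear axis from 0 for each gene. NLRP2 and NLRP7 rise from near 0 to 374 and 22.3 CPM, NLRP1 shifts from 4.20 to 6.06 CPM, and the NLRX1 groups overlap.

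The other genes of the chromosome 19 cluster stayed at or near 0. NLRP11, a primate gene without a mouse counterpart, had 4, 2 and 2 counts in the wild-type libraries against 1, 0 and 1. All knockout libraries were lower, but the sums of 8 and 2 counts give a ratio of 0.24 with a 95% counting interval of 0.0248 to 1.20, so no difference was detectable at this depth. NLRP9, a gene of oocytes and intestinal epithelium, had 1 count in knockout replicate 1 and 0 in the other non-directional libraries. NLRP4, NLRP5, NLRP13 and NLRP3 had 0 counts in all 12 libraries, which allows up to 0.294 to 0.336 CPM in each non-directional library. These limits cover counting error only, since reads were not tied to molecules.

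After the filter on low counts, 4 of the 10 genes were fitted in the non-directional libraries and 3 passed an adjusted p of 0.05, all of them higher in the knockout. Over all 13778 genes fitted, 51.5% passed, 25.5% higher and 25.9% lower. NLRP2 and NLRP7 passed with a log2 fold change of at least 1, as did 3.61% of all genes fitted. Passing with at least 1 in either direction was true of 7.8%. For NLRP2, NLRP7 and NLRP1 all knockout libraries were higher than all wild-type ones, as for 29.1% of all genes, and the groups did not overlap for 56.2% of all genes (27% with the knockout below). The list was chosen on this contrast, so nothing is read from these counts.

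To compare genes with each other, levels were divided by the exon length of each gene (CPM per kb). In the wild type NLRX1 was highest at 4.11 ± 0.844 CPM per kb, followed by NLRP2 at 0.330 ± 0.088 and NLRP1 at 0.328 ± 0.058, which did not differ beyond their spread. NLRP7 was at 0.142 ± 0.095 CPM per kb and NLRP11 at 0.0641, and these too were within the spread. In the knockout the order was NLRP2 at 59.3 ± 0.915 CPM per kb, NLRP7 at 5.70 ± 0.202, NLRX1 at 3.72 ± 0.145 and NLRP1 at 0.473 ± 0.017 (SD, n = 3 each), each apart from the next by more than the spread. Among the 13778 genes fitted, NLRP2 thus went from rank 13028 to rank 758 by level per length, NLRP7 from 13554 to 6679, NLRP1 from 13036 to 12621 and NLRX1 from 7778 to 8162.

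The make-up of the summed counts of the 10 genes turned over with the genotype. In the wild-type non-directional libraries they summed to 247 to 314 counts, of which NLRX1 held 74.5% to 76.8% and NLRP2 6.07% to 7.72%. In the knockout libraries they summed to 4112 to 4255 counts, of which NLRP2 held 88.5% to 88.7% and NLRX1 4.61% to 4.81%. The level of NLRP2 per kb was 10.1 to 11.05 times that of NLRP7 in the knockout libraries. In the wild-type libraries, where NLRP7 had few counts, it was 2.48, 7.44 and 1.03 times that of NLRP7.

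Sequence shared between NLRP2 and NLRP7 bears on how well their reads can be told apart. Of all 50-base words in the annotated exons and transcripts, 93.9% of those of NLRP2 and 91.0% of those of NLRP7 occur in no other gene. Of the 4189 words of NLRP7, 376 are shared with NLRP2, and the longest run the genes have in common on the same strand is 175 bases. The part of shared reads in the level of either gene was not tested. NLRX1 and NLRP13 shared no word with another gene, and 99.6% of the words of NLRP1 were its own.

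In the directional tables the depth in genes was low, and the counts of the same 10 genes were small. NLRP2 had 0 counts in the 3 wild-type libraries and 22, 17 and 19 in the knockout libraries. The knockout mean of 33.2 ± 2.98 CPM (SD, n = 3) was at least 5.88-fold higher than the largest level that 0 counts allow in a wild-type library, taken as 3 counts (5.64 CPM). NLRP7 had 0 counts in each wild-type library against 3, 1 and 1, at or below that floor. NLRP1 had 2, 1 and 1 counts against 1, 0 and 1, and NLRX1 had 1, 1 and 0 against 0 in all 3. Of the 10 genes only NLRP2 was fitted, and it entered the fit only through its knockout libraries. It passed, where 16.2% of 4745 genes passed, 7.67% higher and 8.54% lower. The list was chosen on this contrast, so nothing is read from this call.

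Most reads of the directional tables lie outside the genes as counted. The strand that was counted is not given in the sources used here. Some genes whose exons overlap a gene on the opposite strand had more counts there than in the non-directional tables. GDF9, which overlaps UQCRQ, had 9, 6 and 9 counts in the wild-type non-directional libraries and 357, 354 and 326 in the directional ones. Others had fewer, such as NOD1 with 127, 104 and 105 against 3, 1 and 0. The strand was not tested, so directional CPM cannot be taken as the level of a gene's own RNA. Per 1000000 listed reads, the directional level of NLRP2 in the knockout was 0.580% of its non-directional level. Over 3325 genes with no exon overlap and at least 1000 reads the median was 0.503%, with quartiles of 0.326% and 0.765%, so NLRP2 lay between the quartiles. NLRP7 lay at 0.817% on 5 directional reads. NLRP9 had 4 counts in wild-type replicate 2 and 3 in knockout replicate 2 and none elsewhere in these tables. It shares 17.0% of its exon bases with EPN1, an endocytosis gene on the opposite strand, which had 180.4 ± 4.80 CPM in the wild type and 180.9 ± 2.18 CPM in the knockout of the non-directional kit. The part of EPN1 reads in the NLRP9 counts was not tested.

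**Figure D2:**
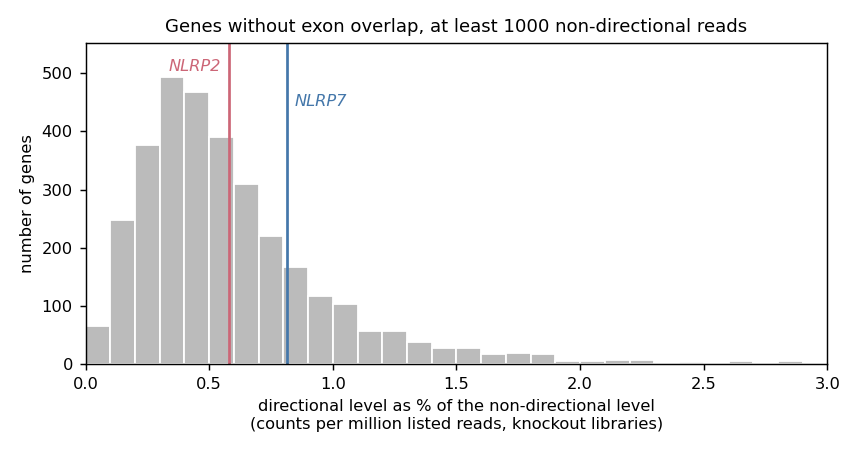
Directional level as a percentage of the non-directional level, both per 1000000 listed reads in the knockout libraries, for 3325 genes with no exon overlap and at least 1000 non-directional reads (46 genes above 3% are not drawn), with vertical lines for NLRP2 and NLRP7. The line of NLRP2 at 0.580% falls inside the bulk of the genes and that of NLRP7, which rests on 5 directional reads, lies to its right at 0.817%.

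Genes around the 10 members were not used in choosing them and were tested. Within 500 kb of a member lay 297 other genes, of which 90 were fitted in the non-directional libraries. Of these, 47 passed an edgeR adjusted p of 0.05 (52.2%, beside 51.5% of all genes), 27 higher and 20 lower, with a median log2 fold change of 0.02 beside -0.001 over all genes. Past a log2 fold change of 1 there were 7 higher and 2 lower. In the fit over all 12 libraries the split was 17 higher and 27 lower.

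Around NLRP2 and NLRP7, 23 neighbours were fitted, 6 rose and 7 fell (56.5% of those fitted, beside 51.5% of all genes). Only TMEM238, a small membrane protein gene, passed with a change of at least 2-fold, and it fell from 2.61 ± 0.284 to 1.28 ± 0.231 CPM (SD, n = 3 each; log2 fold change -1.02, standard error 0.28, edgeR adjusted p = 0.0012). The nearest fitted gene on the NLRP2 side, AC011476.3, lay 5.05 kb away and was at 1.60 ± 0.680 and 1.62 ± 0.232 CPM, with a log2 fold change of 0.02 (standard error 0.31, edgeR adjusted p = 0.956) that ranged from -0.29 to 0.35 when 1 library was left out. The nearest on the NLRP7 side, LENG9, lay 459.8 kb away and fell from 6.03 ± 0.900 to 4.04 ± 0.654 CPM (log2 fold change -0.58, standard error 0.17, edgeR adjusted p = 0.0036). The 35 genes between them that were not fitted include 17 genes of the KIR and LILR families, receptors of natural killer and myeloid cells, whose largest count in a non-directional library was 2. Of the 35 genes, 30 had 0 counts in all 6 non-directional libraries, and the largest count was 5, in CDC42EP5.

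Around the silent cluster of NLRP4, NLRP5, NLRP9, NLRP11 and NLRP13, 32 neighbours were fitted, 12 rose and 4 fell. That is 50% of those fitted, beside 51.5% of all genes (25.5% higher and 25.9% lower). Some of these neighbours, TMEM238 included, lie within 500 kb of both gene groups. The changes of at least 2-fold among them included zinc finger genes at the far end of the interval. ZNF667 had 3, 0 and 3 counts in the wild-type libraries against 91, 86 and 99, or 0.204 ± 0.178 and 9.28 ± 0.486 CPM (log2 fold change 5.37, standard error 0.31, edgeR adjusted p = 3.5e-27). The wild-type mean of ZNF667 lay under the lowest level the depth can show. This gene entered the fit only through its knockout libraries, so the size of its fold change is uncertain. Its antisense partner ZNF667-AS1 rose from 0.705 ± 0.183 to 14.5 ± 1.32 CPM (log2 fold change 4.34, standard error 0.21, edgeR adjusted p = 8.0e-32). ZNF667-AS1 too entered the fit only through its knockout libraries, so the size of its fold change is uncertain. Exons of ZNF667 and ZNF667-AS1 overlap on opposite strands, so reads of the overlap cannot be told apart in this kit. ZSCAN5A, a zinc finger gene, rose from 24.3 ± 0.793 to 63.9 ± 1.06 CPM (log2 fold change 1.39, edgeR adjusted p = 3.9e-33) and ZNF471 from 1.46 to 3.16 CPM (1.09, edgeR adjusted p = 0.00024).

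**Figure D3:**
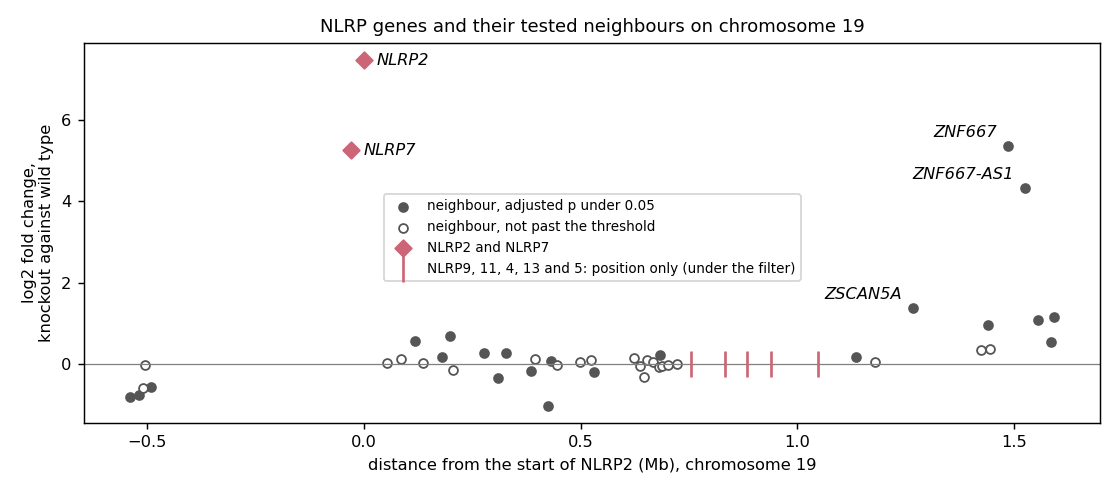
Log2 fold change, knockout against wild type in the non-directional libraries, of NLRP2, NLRP7 (diamonds) and their fitted neighbours (circles, filled where the edgeR adjusted p was under 0.05) against distance in Mb from the start of NLRP2. NLRP2 (7.48) and NLRP7 (5.27) stand over neighbours near 0, and ZNF667 (5.37) and ZNF667-AS1 (4.34) stand at the far end. Vertical ticks mark NLRP9, NLRP11, NLRP4, NLRP13 and NLRP5, which were under the filter.

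Near NLRP1, 13 neighbours were fitted, 5 rose and 4 fell (69.2% of those fitted, beside 51.5% of all genes). WSCD1 fell from 13.2 ± 2.09 to 0.404 ± 0.103 CPM (log2 fold change -4.99, standard error 0.24, edgeR adjusted p = 1.9e-31). WSCD1 entered the fit only through its wild-type libraries, and its knockout level was near the lowest the depth can show. The size of its fold change is therefore uncertain. The zinc finger gene ZNF594 rose from 9.63 to 20.8 CPM (1.09, edgeR adjusted p = 1.7e-15) and AC012146.1 from 3.74 to 8.81 CPM (1.23, edgeR adjusted p = 3.7e-10). Near NLRP3, 12 were fitted, 1 rose and 6 fell (58.3%), with a median log2 fold change of -0.24 beside -0.001 over all genes. Near NLRX1, 21 were fitted, 6 rose and 3 fell (42.9%). Few genes were fitted near each member, so nothing is read from these shares. With the directional kit 43 neighbours were fitted, 4 rose and 5 fell. These were 20.9% of those fitted, beside 16.2% of all 4745 genes fitted there (7.67% higher and 8.54% lower), so nothing is read from the count.

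L1 elements, the other readout of these libraries, gave little beside the 10 genes. Within 100 kb of a member lay 2 of the 6437 long L1 loci listed, and neither passed the filter on low values. An L1PA2 element inside NLRP11 (chromosome 19, 55822402 to 55828429) had 0, 2 and 2 reads in the wild-type libraries against 3, 2 and 4. An L1PA7 element beside NLRP3 (chromosome 1, 247507523 to 247513984) had 0 reads in all 6 non-directional libraries.

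Genes of the pathways in which the 10 members act had log2 fold changes between -2.13 and 0.88 where they could be fitted. Of 13 other NLR genes 2 were fitted. NLRC5, a transactivator of MHC class I genes, fell from 60.8 ± 3.31 to 29.7 ± 1.18 CPM (SD, n = 3 each; log2 fold change -1.04, standard error 0.063, edgeR adjusted p = 7.4e-26). NOD1, a sensor of bacterial peptidoglycan, had a log2 fold change of 0.08 (edgeR adjusted p = 0.566).

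Of 30 inflammasome partners measured, 14 were fitted, 4 rose and 4 fell, with a median log2 fold change of -0.11. That is 57.1% of those fitted, beside 51.5% of all genes. TXNIP, a thioredoxin inhibitor that binds NLRP3, fell from 14.8 ± 1.11 to 6.42 ± 0.487 CPM (log2 fold change -1.21, edgeR adjusted p = 3.2e-14), and NEK7, a kinase that NLRP3 needs, fell by 0.26 on the log2 scale (edgeR adjusted p = 6.2e-05). DPP9, a peptidase that holds NLRP1 inactive, rose by 0.31 (edgeR adjusted p = 2.2e-09), NINJ1, which ruptures the membrane of dying cells, by 0.54 (edgeR adjusted p = 4.9e-08), and IL18BP, a secreted cytokine antagonist, by 0.88 (edgeR adjusted p = 2.3e-05). PYCARD, the adaptor of inflammasomes, was at 2.97 ± 0.494 and 2.69 ± 0.788 CPM (log2 fold change -0.15, edgeR adjusted p = 0.604). The sensor AIM2 and the cytokine gene IL18 were among 8 of the 30 genes with 0 counts in all 6 non-directional libraries.

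Of 25 genes of NF-kB and antiviral signalling, 22 were fitted, 6 rose and 6 fell, with a median log2 fold change of 0.01. That is 54.5% of those fitted, beside 51.5% of all genes (25.5% higher and 25.9% lower). The NF-kB subunit gene RELA fell by 0.38 on the log2 scale (edgeR adjusted p = 3.7e-09) and the inhibitor gene NFKBIA fell by 0.41 (edgeR adjusted p = 9.9e-09), whereas a second inhibitor gene, NFKBIB, rose by 0.30 (edgeR adjusted p = 8.8e-09). DTX4, a ubiquitin ligase gene that acts with NLRP4, rose by 0.40 (edgeR adjusted p = 1.4e-05). ICAM1, an adhesion molecule gene and NF-kB target, fell from 2.37 ± 0.762 to 0.541 ± 0.219 CPM (log2 fold change -2.13, edgeR adjusted p = 4.2e-07). ICAM1 entered the fit only through its wild-type libraries, with 6, 7 and 3 counts in the knockout, so the size of its fold change is uncertain. Of the 5 partners of NLRP5 in the subcortical maternal complex, KHDC3L and PADI6 were at 0 counts, TLE6 had a log2 fold change of 0.22 (edgeR adjusted p = 0.526) and ZBED3 of -0.25 (edgeR adjusted p = 0.141).

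Marker genes of other cell types were read beside these results. Of 10 oocyte markers, ZP2, ZP4, BMP15, FIGLA and NOBOX had 0 counts in all 6 non-directional libraries, ZP3 alone was fitted (log2 fold change 0.04, edgeR adjusted p = 0.938), and the list summed to 2.45 to 2.91 CPM in the wild type and 2.24 to 2.66 CPM in the knockout. Of 13 leukocyte and myeloid markers, CD33, MPO, SPI1 and LYZ had 0 counts in these 6 libraries, although the labels give a myeloid leukemia as the cell type. The list summed to 29.6 to 30.3 CPM in the wild type and 43.3 to 47.4 CPM in the knockout. That rise of the sum lay in ANPEP, 1 of the 2 fitted genes of the list. ANPEP, a surface aminopeptidase, rose from 10.4 ± 0.454 to 28.5 ± 2.03 CPM (log2 fold change 1.44, edgeR adjusted p = 9.8e-24), and KIT, a growth factor receptor gene, had a log2 fold change of -0.19 (edgeR adjusted p = 0.0749). The part of these genes in the NLRP2 and NLRP7 levels was not tested.

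**Figure D4:**
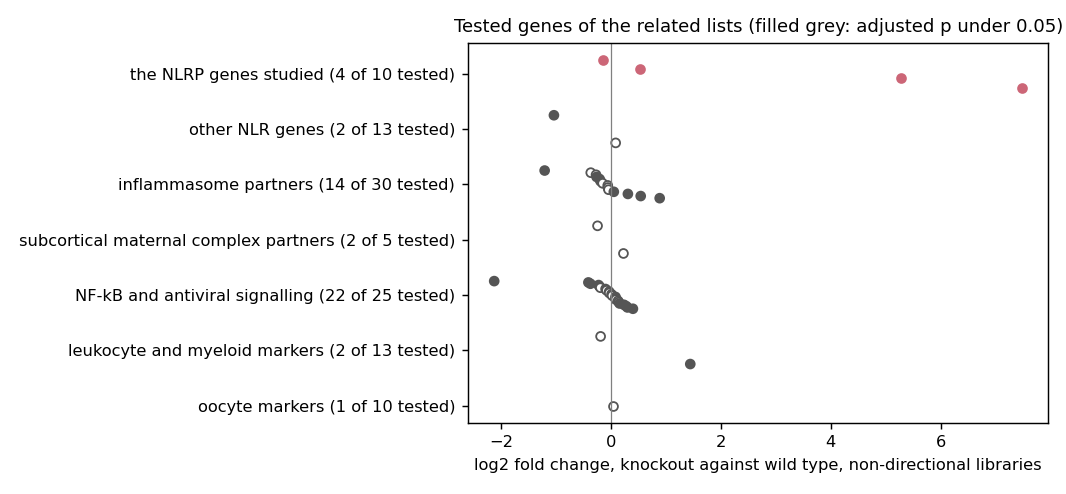
Log2 fold change, knockout against wild type in the non-directional libraries, of every fitted gene in the list of 10 members (coloured) and in 6 lists of related genes (grey, filled where the edgeR adjusted p was under 0.05). NLRP2 and NLRP7 lie at 7.48 and 5.27, while the genes of the 6 lists lie between -2.13 and 1.44.

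Genes outside these lists that came nearest to NLRP2 and NLRP7 were found by the Euclidean distance of log2(CPM + 1) over the 6 non-directional libraries, as a description of level and pattern together. Nearest to NLRP2 were the pseudogene AP000812.2 (distance 0.97, from 1.61 ± 0.133 to 277 ± 1.91 CPM), CPED1 (1.49, from 4.41 ± 0.757 to 320 ± 5.36 CPM) and PRAME (2.05, from 3.25 ± 0.914 to 187 ± 4.42 CPM), a tumour antigen gene of the germline. Nearest to NLRP7 were the zinc finger genes ZNF430 (0.41, from 0.415 ± 0.426 to 20.1 ± 0.967 CPM) and ZNF93 (0.56, from 0.523 ± 0.070 to 25.4 ± 1.26 CPM), and DMRT1 (0.63, from 0.603 ± 0.186 to 18.96 ± 0.705 CPM), a transcription factor gene of the testis.

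The effect of the knockout was also compared between kits, as the genotype by kit term of an edgeR fit over all 12 libraries, in which 1.82% of 15832 genes passed. NLRP2, NLRP7, NLRP1 and NLRX1 entered that fit, and as their contrast chose them no test of this term is given for them.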

How the data were processed

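Total RNA of 12 HAP1 libraries was measured. The submitters' processing notes name the build hg38 and the tools Trim Galore 0.4.4, STAR 2.6.0a, SAMtools 1.9, Picard 2.23.8, HTSeq 0.11.1, DESeq2 and bedtools, with no role or order; the annotation and the strand setting are not given in the sources used here. The authors deposited raw counts per gene for every library, and a normalized signal per L1 locus for the non-directional libraries. All L1 values divided back to whole reads within 0.01 of a read, and those reads are printed here. The publication given with the series describes other samples and was not used.

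Gene IDs were matched to GENCODE 29 (58735 of 58735). Reads in no gene stayed out of library sizes (19.6% to 19.7% of non-directional and 94.7% to 94.8% of directional listed reads were outside genes). Each kit was fitted alone over all genes with edgeR 4.0.16 in R 4.3.3 (filterByExpr with a minimum count of 10 and a minimum total of 15, TMM, glmQLFit and glmQLFTest), p-values adjusted by Benjamini and Hochberg and called under 0.05. Standard errors, which are approximate, come from the log2 fold change over the root of its F statistic. Alternatives were DESeq2 1.42.0 (size factors and the Wald test), no filter, 1 fit over all libraries, a replicate block, and each library left out. L1 loci were filtered for limma 3.58.1 on log2(signal + 1). The scripts were tested on simulated data. The members, lists and tests were chosen with earlier results of these data known. Named were all members, SETDB1, the nearest fitted gene on each side of NLRP7 and NLRP2, up to 8 called neighbours of at least 2-fold and up to 5 called genes a list, by smallest p, and the 3 nearest genes by pattern to NLRP2 and to NLRP7; other genes were named after their values were seen.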

Additional observations from a re-analysis of the deposited data

Results flagged for a closer look

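Among SETDB1 and the genes around or related to the 10 NLR genes, 4 had a knockout effect that differed between the directional and the non-directional tables by the genotype by kit term of edgeR. Leaving SETDB1 aside, the other 3 stood among 163 genes compared, where 1.82% of all 15832 genes passed. This is near the share over all genes, so nothing is read from the count. For SETDB1 itself the directional log2 fold change minus the non-directional one was 1.74 (standard error 0.45, edgeR adjusted p = 0.010). For RPAIN, near NLRP1, it was 0.78 (standard error 0.13, edgeR adjusted p = 2.8e-07), and for ZNF232, also near NLRP1, 1.07 (standard error 0.21, edgeR adjusted p = 6.0e-05). For IL18BP it was -0.87 (standard error 0.21, edgeR adjusted p = 0.0041). Each of the 4 genes has exon bases in common with a gene on the opposite strand: SETDB1 with CERS2, RPAIN with NUP88 and C1QBP, ZNF232 with AC012146.1 and IL18BP with NUMA1. The part of that overlap in the difference was not tested. Groups of 3 libraries are too small for the check for single samples far from the others.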

How the results depend on the processing

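The non-directional log2 fold changes of NLRP2 (7.33 to 7.70) and NLRP7 (4.93 to 5.87) kept their direction under all alternatives. They were 7.49 and 5.32 when the knockout libraries were added up into 1, with no test. The list was chosen on this contrast, so these ranges are a description only. That of NLRP1 ran from 0.42 to 0.67. NLRX1 ran from -0.24 to 0.034 when 1 library was left out, and AC011476.3 from -0.29 to 0.35, with -0.036 in the fit over all 12 libraries; the cause was not tested. With the Wald test of DESeq2, 5359 of all non-directional genes passed in place of 7089, 16 list genes in place of 22, 31 neighbours in place of 47 (38 to 43 when 1 library was left out), 4 directional neighbours and list genes in place of 9 (5 to 8, with 5 without wild-type replicate 3 and 5 without knockout replicate 1), and 330 directional genes in place of 769. The gene lists had 22 calls, 11 higher and 11 lower, against 7 higher and 13 lower in the fit over all 12 libraries. Same-numbered libraries had correlations of deviations from -0.026 to 0.014, and 0 of 6 non-directional and 1 of 6 directional libraries correlated best with their own number. The non-directional knockout libraries differed by no more than sampling noise, which by itself gives correlations near 0. Whether same-numbered libraries share a culture or a batch therefore cannot be told from these values. With the replicate block, 3 members (1 directional), 48 neighbours, 21 list genes, 8 directional neighbours and list genes, 3 kit differences and 0 L1 loci passed, SETDB1 was at -2.39 (directional -0.71), and 7074 of all genes passed in place of 7089. The median log2 fold change of all non-directional genes moved to -0.046 at most. Depth limits the silent members to an upper bound. The directional libraries had 10106592 to 12842195 listed reads, near the 11096966 to 12684855 of the non-directional ones. Only 5.23% to 5.30% of the directional reads were in genes, so only genes with enough of these counts could be fitted there.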

Other observations

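The other NLR genes that were under the filter on low counts in the non-directional libraries are given by their counts, as values chosen after they were seen and with no test. NLRP12, a gene of myeloid cells on the long arm of chromosome 19, had 8, 4 and 5 counts in the wild-type libraries against 8, 14 and 11. NLRC4, a sensor of bacterial flagellin through NAIP, had 4, 5 and 3 counts against 12, 8 and 11. For NLRP12 and NLRC4 all knockout libraries were higher in CPM, as for 29.1% of all genes fitted, though these low-count genes were not among those. Replicate 1 of NLRP12 had 8 counts in both genotypes (0.784 CPM in the wild type and 0.819 CPM in the knockout), so that order rests on library size. NLRP14, a gene of testis and oocyte, had 1, 4 and 4 counts against 5, 4 and 4. NLRP2B, an intronless relative of NLRP2 on chromosome X, had at most 1 count in any library. NLRP8 and NLRP10 had 0 counts in all 12 libraries.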
